A study of Mus musculus with 6 samples.

Results

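The genes described here are 10 members of the late cornified envelope 1 (LCE1) group of the mouse: Lce1a1, Lce1b, Lce1c, Lce1d, Lce1e, Lce1g, Lce1h, Lce1i, Lce1j and Lce1m. They were chosen by gene symbol from a deposited table of 47729 genes, with earlier results of the same comparison known. Their differences between the groups are therefore given as a description. The table holds 14 LCE1 genes in all, and the other 4 (Lce1a2, Lce1f, Lce1k and Lce1l) are set beside the members where this helps.

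RNA was sequenced from the epidermis of wild-type C57BL/6 mice whose skin had received an AKBA gel (3 libraries) or a control gel without AKBA (3 libraries). AKBA is the common short name of acetyl-11-keto-β-boswellic acid, which comes from the resin of Boswellia trees. The epidermis was taken off the dermis with the enzyme Dispase II, and sequencing was on an Illumina HiSeq with TruSeq libraries. The control libraries also carry the letters IMQ in their descriptions. The labels do not spell these letters out, and they name no other treatment of the skin for either group. The labels do not tie the replicates to separate animals either, so a p-value covers the spread between libraries alone, and that spread may be technical.

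LCE proteins are small, cysteine-rich proteins that keratinocytes make in the granular layer, at the last step before they die and become the cornified layer. Transglutaminases cross-link them, with loricrin and other proteins, into the cornified envelope that replaces the plasma membrane. In humans, LCE1 genes are known as genes of normal skin, and LCE3 genes as genes induced by barrier injury and in psoriasis. The LCE genes lie in the epidermal differentiation complex, a gene cluster that also holds loricrin, involucrin, the filaggrin-type genes and the small proline-rich (SPRR) genes.

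In the GENCODE M21 annotation of GRCm38, all 10 members are protein-coding genes of chromosome 3 with 2 exons, of which 1 holds coding sequence. Lce1a1 (92646535 to 92648307, minus strand) is the first of a block of 9 members that ends with Lce1j (92788840 to 92790514, minus strand). Within the block the gap from 1 member to the next was 4.58 to 41.1 kb, and Lce1c (92679247 to 92680918) was the only member on the plus strand. Lce1m (93017810 to 93019060, minus strand) lies 227 kb beyond Lce1j. In between lie Lce1k and Lce1l, which are not members, and then all 6 LCE3 genes. Lce1l ends at 92851286, so part of the gap comes from which LCE1 genes are members. The block members have a coding length of 399 to 447 bases, or 133 to 149 codons without the stop codon, while Lce1m has 546 bases, or 182 codons. Between pairs of block members, the coding sequences were 74.9% to 92.2% identical (median 86.5%, 36 pairs). Lce1m shared 47.0% to 57.9% with each of the 9 (median 52.6%). Lce1m is thus apart from the block in position, length and sequence.

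The similarity of the block members bears on how reads can be counted. In the transcripts of the 9 block members, 17.8% to 27.1% of all stretches of 50 bases occurred in another gene as well, and 1.27% to 4.90% of stretches of 100 bases. In Lce1m the share was 0 at both lengths. The split of reads between block members is therefore uncertain, while Lce1m is less exposed to this. The other gene could also be one outside the set, so how far the sum is exposed was not measured. The read length was not stated in the labels.

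The stretches just upstream of the transcription starts show what most members share and where Lce1m departs. The RefSeq table of promoters (GRCm38.p6, 250 bases before to 50 after each start) held all 10 members. The 100 bases that end just before the start are printed 5′ to 3′ for 5 members that cover the range, in the transcribed direction. The capitals mark a 10-letter run, ACTGTCTCAC, and the 6 letters ATAAAA near the start.
Lce1a1: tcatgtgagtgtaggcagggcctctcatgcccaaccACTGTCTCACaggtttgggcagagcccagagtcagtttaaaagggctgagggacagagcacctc
Lce1d: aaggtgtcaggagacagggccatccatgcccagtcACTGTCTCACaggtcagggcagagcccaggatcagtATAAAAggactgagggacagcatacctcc
Lce1h: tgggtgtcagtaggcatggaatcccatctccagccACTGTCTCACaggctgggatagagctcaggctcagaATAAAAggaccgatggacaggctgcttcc
Lce1j: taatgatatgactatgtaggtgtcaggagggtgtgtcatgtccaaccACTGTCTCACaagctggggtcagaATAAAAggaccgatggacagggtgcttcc
Lce1m: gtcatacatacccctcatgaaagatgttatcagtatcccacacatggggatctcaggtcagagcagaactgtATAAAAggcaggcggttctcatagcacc

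On the minus strand of chromosome 3 these are chr3:92648308-92648407 for Lce1a1, chr3:92687211-92687310 for Lce1d, chr3:92765066-92765165 for Lce1h, chr3:92790515-92790614 for Lce1j and chr3:93019062-93019161 for Lce1m. Read in the direction of transcription, ATAAAA between 40 and 20 bases before the start was present in 9 of the 10 members, all but Lce1a1, and in 1.74% of all 32851 promoter windows. Its first base was at -29 in the block members and at -28 in Lce1m. The run ACTGTCTCAC stood in 8 members, with its first base between -65 and -53, and was missing from Lce1c and Lce1m. Lce1c has a near match from -65, ACTGTATCAC, with A in place of C. The exact run stood in 15 of the 32851 windows (0.0457%, within the same 100 bases), 9 of them of LCE1 genes, since Lce1a2 has it too. The run was found as a longest one shared by at least 8 of the 9 block members, and both it and ATAAAA were picked after the sequences had been seen. Over the 250 bases upstream, pairs of block members were 56.5% to 85.6% identical (median 64.8%), and Lce1m was 46.3% to 50.4% identical to each of them (median 48.9%).

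Known short motifs were searched on both strands of the whole windows. The TATA box TATAAA matched 2 members, Lce1d and Lce1m, beside 13.6% of all promoters, and it overlaps ATAAAA by 5 letters in both. The KLF-type motif CACCC matched 5 members (Lce1b, Lce1c, Lce1e, Lce1h and Lce1j) beside 57.5% of promoters. The core TGACNNNGC of the antioxidant response element matched Lce1d alone, beside 12.4% of promoters. No member had a match to TGANTCA of AP-1 (7.81% of promoters), CCAAT (37.4%), AACCGG of the Grainyhead type (6.83%) or TTGCNNAA of the C/EBP type (10.8%). These matches describe letters in the window and say nothing of binding.

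The 6 libraries held 19066045 to 22760432 counts, so that 3 counts, the floor used here, correspond to 0.132 to 0.157 CPM, the count scaled by the column total. All other CPM values are after edgeR's TMM scaling. The 10 members took 0.153% to 0.469% of the counts in AKBA libraries and 0.109% to 0.176% in control libraries, with at least 868 counts for each member in each library. Within a group, chi-square over degrees of freedom was 28.3 to 83.9 between libraries, above sampling noise, and each library counts as 1 sample. Markers of keratinocytes were abundant, and so were transcripts of other tissue: the 6 fibroblast markers summed to 19437 to 25765 CPM in AKBA libraries and 18754 to 35288 CPM in control libraries. In such bulk samples, fewer cells of a type and less RNA per cell cannot be told apart.

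Per transcript length, Lce1a1 was the most abundant member. Its deposited FPKM, the count per column total and per length of the gene, averaged 837 ± 383 in AKBA libraries and 403 ± 106 in control libraries (SD, n = 3 each), and it was first of the 10 in each of the 6 libraries, at 1.40 to 1.75 times the FPKM of Lce1c. Lce1c, Lce1b and Lce1d followed, with means over all 6 libraries of 420, 409 and 387 FPKM. Their order changed between libraries, so these neighbours did not differ beyond their spread. Lce1d stood above Lce1g in 6 of 6 libraries, by 1.47 to 1.72 times. Lce1g, Lce1e and Lce1i formed the next set, at 235, 232 and 227 FPKM, again with changing order. The lowest means were those of Lce1m (185 FPKM), Lce1h (177 FPKM) and Lce1j (137 FPKM). Lce1m had no fixed place: it held places 5 to 10, depending on the library. With CPM in place of FPKM, 8 of the 10 members kept their place, and Lce1m and Lce1e exchanged places 6 and 8.

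All 10 members averaged higher in AKBA libraries than in control libraries, and the 3 AKBA libraries differed widely among themselves. The summed CPM of the 10 genes was 3055, 4753 and 1437 in AKBA libraries (replicates 1 to 3) and 1724, 1177 and 1193 in control libraries. The mean was 3082 ± 1658 CPM in AKBA libraries and 1365 ± 312 CPM in control libraries (SD, n = 3 each), a ratio of 2.26. AKBA replicates 1 and 2 were above every control library, while AKBA replicate 3 lay below control replicate 1 and above the other 2 control libraries. The groups thus overlapped. The ratio was 1.65 without AKBA replicate 2 and 2.86 without AKBA replicate 3.

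**Figure D1:**
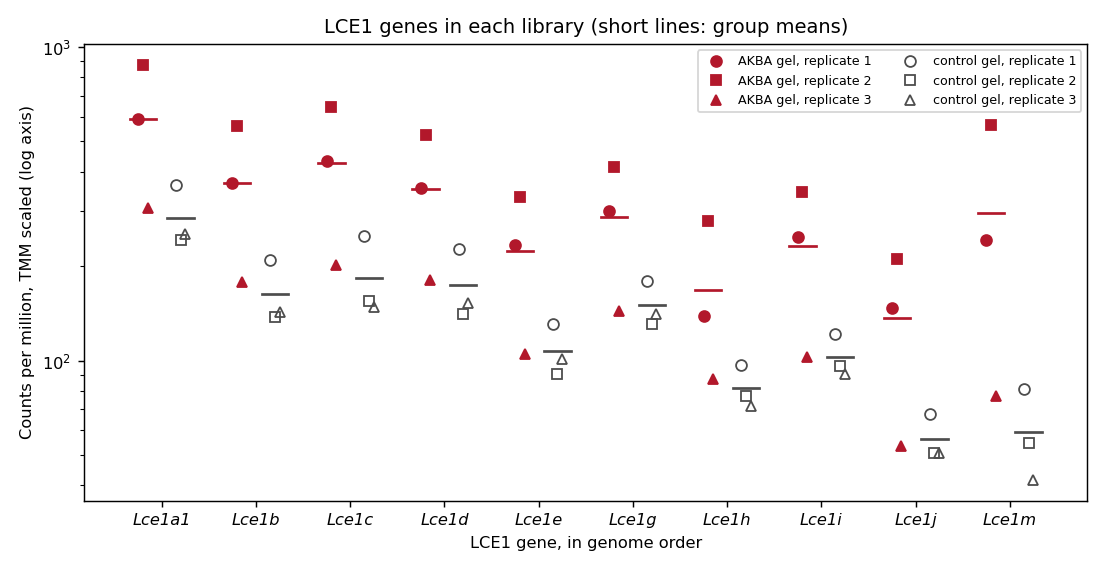
Level of each LCE1 gene in each library (vertical log axis, CPM after TMM scaling), with AKBA libraries as filled and control libraries as open symbols, 1 symbol shape per replicate number and short lines for the group means. For each of the 10 genes AKBA replicate 2 is the highest library, and AKBA replicate 3 lies below control replicate 1.

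The plot of levels by library shows nearly the same order of libraries from gene to gene. Lce1a1, the most abundant member, was at 589, 878 and 306 CPM with AKBA gel (replicates 1 to 3) and at 362, 243 and 253 CPM with control gel. Lce1b was at 367, 560 and 178 CPM with AKBA gel, against 209, 138 and 143 CPM with control gel. Lce1c was at 432, 646 and 202 CPM with AKBA gel, against 249, 155 and 149 CPM with control gel. In each of these 3 genes, AKBA replicates 1 and 2 were the 2 highest libraries and control replicate 1 came next.

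Lce1d was at 356, 522 and 181 CPM with AKBA gel, against 227, 141 and 153 CPM with control gel. Lce1e was at 234, 333 and 105 CPM with AKBA gel, against 131, 90.7 and 101 CPM with control gel. For Lce1e replicate 3 of AKBA gel and replicate 3 of control gel were nearly level. Lce1g was at 300.5, 414 and 144 CPM with AKBA gel, against 179.8, 131 and 140.3 CPM with control gel, with both replicates 3 as close. Lce1h was at 139, 279 and 87.3 CPM with AKBA gel, against 96.6, 77.2 and 71.6 CPM with control gel. In Lce1h, AKBA replicate 2 stood farther above AKBA replicate 1 than it did in Lce1g. Lce1i was at 248, 344 and 103 CPM with AKBA gel, against 121, 96.4 and 90.6 CPM with control gel. Lce1j, the least abundant per length, was at 147, 211 and 53.5 CPM with AKBA gel, against 67.6, 50.9 and 50.6 CPM with control gel.

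Lce1m, the distant member, had the largest ratio of its highest to its lowest library. It was at 242, 565 and 76.9 CPM with AKBA gel, against 81.4, 54.6 and 41.6 CPM with control gel, with a mean of 295 ± 248 CPM in AKBA libraries and 59.2 ± 20.3 CPM in control libraries (SD, n = 3 each), a ratio of 4.98. Its AKBA replicate 3 was also below control replicate 1, but by less than in the other 9 members. Across the 10 members, AKBA replicate 3 was below control replicate 1 in 10 of 10 and above control replicates 2 and 3 in 10 of 10. AKBA replicate 2 was the highest library in 10 of 10.

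No member had every AKBA library above every control library (0 of 10), while 9.28% of the 17023 genes with enough counts did. Without AKBA replicate 3 the groups were separate in 10 of 10 members, beside 18.5% of genes. Without control replicate 1 they were also separate in 10 of 10, beside 18.5% of genes. The overlap thus came from 1 library on each side. Because the members share their library order, the 10 counts are not independent of each other.

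By edgeR's quasi-likelihood test with Benjamini-Hochberg adjustment over all genes tested, 0 of 10 members passed an adjusted p of 0.05, and neither did any other gene (background 0.0%), while 2291 genes had an unadjusted p under 0.05. The adjusted p-values of the members were 0.331 to 0.343. At an unadjusted p under 0.05 all 10 were higher with AKBA gel, beside 6.45% of all genes. The DESeq2 Wald test called 304 genes in all and 0 of the 10 members, whose adjusted p-values were 0.0513 to 0.119. Among all genes with an adjusted p, it called 0.603% as higher with AKBA gel. In the authors' deposited table, 6 of the 10 members (Lce1a1, Lce1b, Lce1c, Lce1i, Lce1j and Lce1m) are marked as significant. Over all 47729 genes of that table, 19134 of which have no count in any library, 0.241% are marked as significant and higher. That table gives Lce1m a log2 fold change of 2.26 with a false discovery rate (FDR) of 0.0014 and Lce1g, the lowest member, 0.92 with an FDR of 0.09. Whether a member is called therefore depends on the method, and nothing is read from these counts, since the members were chosen with this contrast known.

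**Figure D2:**
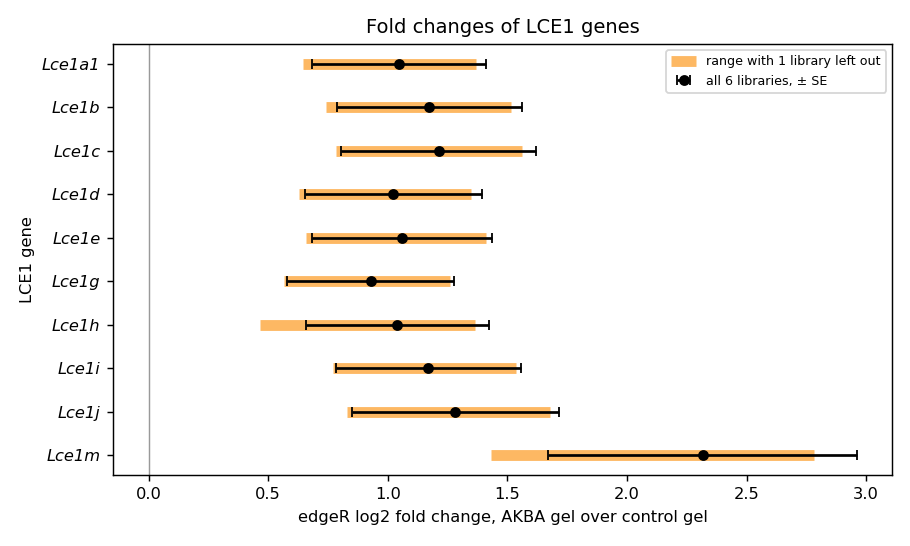
Log2 fold change of each LCE1 gene, AKBA gel over control gel (horizontal axis), as the edgeR estimate from 6 libraries ± SE (black) and as the range of estimates when 1 library at a time is left out (orange). Each estimate lies above 0, and Lce1m is at 2.32 against 0.93 to 1.28 for the other 9.

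The edgeR log2 fold changes of the 9 block members were 0.93 to 1.28, with SEs of 0.35 to 0.43. These SEs hold the spread between libraries that the 9 genes share, so they are no measure of differences among the 9. The smallest was that of Lce1g (0.93 ± 0.35) and the largest that of Lce1j (1.28 ± 0.43). Lce1m had 2.32 ± 0.65. The median over the 10 members was 1.11, beside 0.00 over all 17023 genes. Without AKBA replicate 2 the median was 0.70, with Lce1h the lowest at 0.47 and Lce1m at 1.43, and it was 0.63 when control replicate 3 was left out as well. The plot of fold changes shows these ranges gene by gene.

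The 4 LCE1 genes outside the chosen set lay in the same direction. Lce1k was at 104 ± 57.1 CPM in AKBA libraries and 42.5 ± 9.47 CPM in control libraries, a log2 fold change of 1.29 ± 0.41. Lce1l had 1.17 ± 0.39 and Lce1a2 had 1.19 ± 0.40 on the same scale. Lce1f was at 407 ± 175 CPM in AKBA libraries and 253 ± 41.5 CPM in control libraries, and its log2 fold change of 0.68 ± 0.32 was the smallest of the 14. Over all 14 LCE1 genes, edgeR called 0, and 13 were higher at an unadjusted p under 0.05, beside 6.45% of all genes. DESeq2 called 1 of the 14, Lce1k, beside 0.603% of all genes called as higher.

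**Figure D3:**
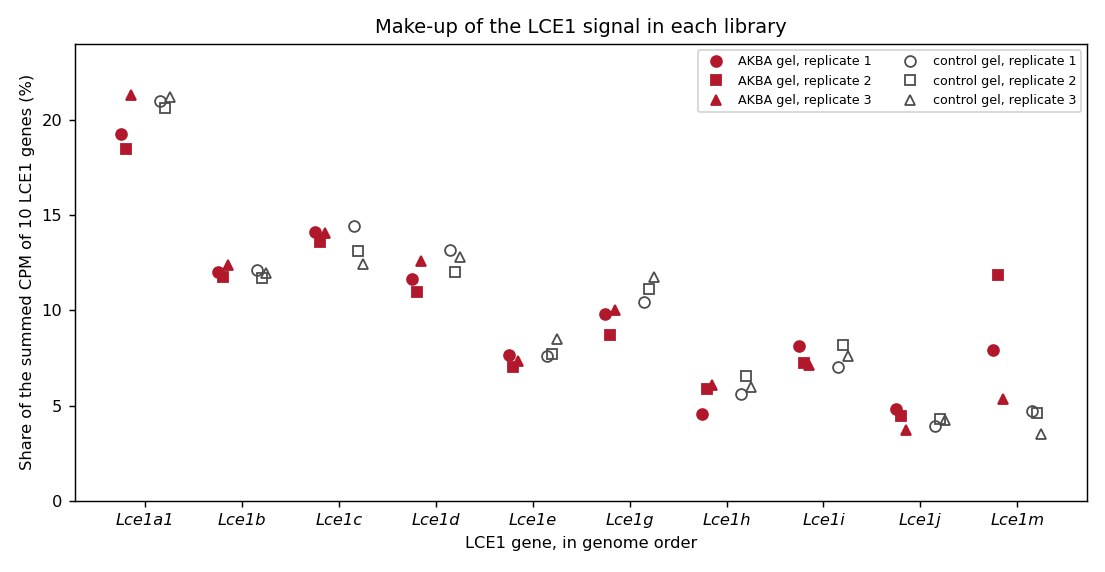
Share of the summed CPM of the 10 LCE1 genes that each gene took in each library (vertical axis, percent), with AKBA libraries filled and control libraries open. The shares of 9 genes stay close together from library to library, and that of Lce1m runs from 3.49% in control replicate 3 to 11.9% in AKBA replicate 2.

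The make-up of the LCE1 signal was nearly fixed for the block members, even where the sum differed several-fold between libraries. Lce1a1 took 18.5% to 21.3% of the summed CPM and Lce1b 11.7% to 12.4%. For each of the 9 block members the highest share was 1.06 to 1.45 times the lowest, and the highest of these ratios was that of Lce1h. For Lce1m it was 3.41 times. Lce1g took 9.84%, 8.72% and 10.02% in AKBA libraries and 10.4%, 11.1% and 11.8% in control libraries, so its share was lower in each AKBA library than in any control library. Apart from Lce1m, no other member had shares that did not overlap between the groups. By CPM, a different measure, 9.28% of all genes had every AKBA library above every control library and 9.1% below. Nothing is read from the separation of Lce1g.

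Lce1m was also higher relative to the block in AKBA libraries. Its CPM was 8.62%, 13.5% and 5.65% of the summed CPM of the other 9 in AKBA libraries, and 4.95%, 4.86% and 3.61% in control libraries. The means were 9.26% ± 3.96 under AKBA gel and 4.48% ± 0.75 under control gel (SD, n = 3 each), and every AKBA library was above every control library. The gap was narrow, with AKBA replicate 3 at 1.14 times control replicate 1. By CPM of single genes, a different measure, 9.28% of all genes had every AKBA library above every control library. The ratio of Lce1m to the other 9 is within a library, so the library's scaling does not enter it. It has no test here, because the members were chosen with their fold changes known. As a description over the 6 libraries, the log2 CPM of pairs of block members correlated with r of at least 0.960 (median 0.991, 36 pairs), and those of Lce1m with each of the 9 with r of 0.979 to 0.991. All of these share libraries, depth and, within the block, reads.

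**Figure D4:**
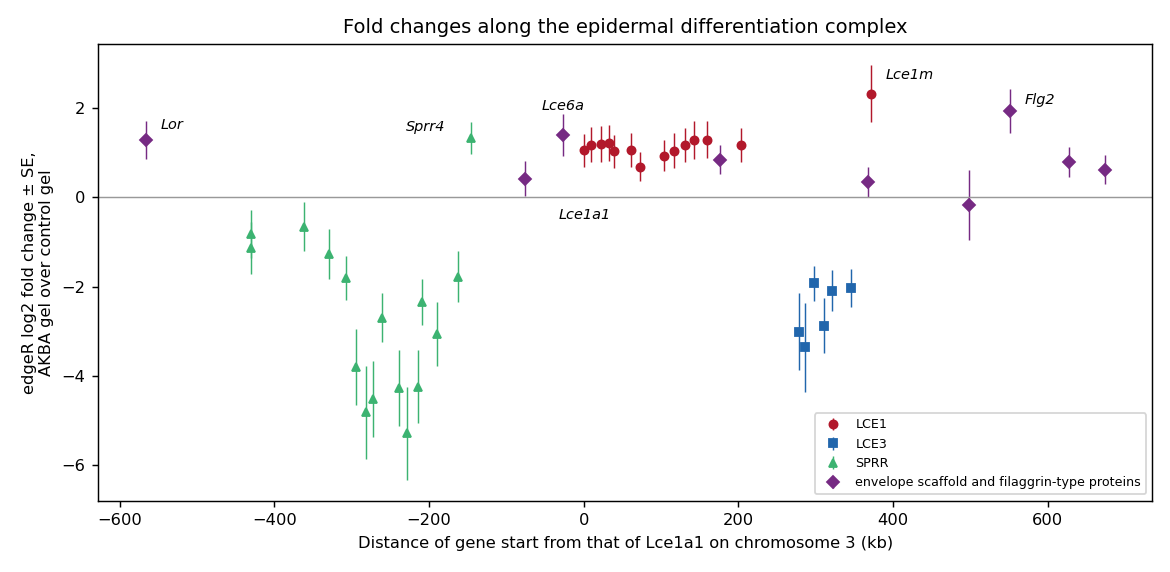
Log2 fold change ± SE (edgeR, AKBA gel over control gel) of genes of the epidermal differentiation complex against the distance of their start from that of Lce1a1 (kb), for LCE1, LCE3, SPRR and envelope scaffold or filaggrin-type genes. The 14 LCE1 genes are above 0 and the 6 LCE3 genes, which lie between the LCE1 block and Lce1m, are below 0.

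The LCE3 genes, which lie between the block and Lce1m, differed in the other direction. Lce3c was at 61.0, 36.0 and 47.0 CPM with AKBA gel, against 109, 137 and 304 CPM with control gel. Lce3d was at 25.2 ± 14.7 CPM in AKBA libraries and 186 ± 118 CPM in control libraries. Lce3e was at 31.4 ± 11.4 CPM in AKBA libraries and 133 ± 81.6 CPM in control libraries. All 6 LCE3 genes had every AKBA library below every control library, as did 9.1% of all genes. Their median log2 fold change was -2.48, and -1.49 without AKBA replicate 2 and control replicate 3. The summed CPM of the 6 was 187, 78.2 and 165 in AKBA libraries and 403, 557 and 1278 in control libraries. Within AKBA gel, replicate 2 had the lowest LCE3 sum and the highest LCE1 sum, while replicate 1 had the highest LCE3 sum and a higher LCE1 sum than replicate 3. edgeR called 0 of the 6. All 6 had an unadjusted p under 0.05, as did 7.01% of all genes in this direction, and DESeq2 called 4, beside 1.33% of all genes called as lower.

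SPRR proteins are cross-bridging proteins of the envelope, and several are known to be induced in stressed epidermis. Of 16 SPRR genes, 15 had a log2 fold change below 0 and Sprr4 one above 0, with a median of -2.52, and of -1.53 without AKBA replicate 2 and control replicate 3. Sprr1b was at 196 ± 79.0 CPM in AKBA libraries and 994 ± 630 CPM in control libraries (log2 fold change -2.35 ± 0.51). Sprr1a was at 290 ± 84.4 CPM in AKBA libraries and 993 ± 809 CPM in control libraries (-1.78 ± 0.58). Sprr2d was at 91.4 ± 40.9 CPM in AKBA libraries and 318 ± 194 CPM in control libraries (-1.80 ± 0.49). edgeR called 0 of the 16. At an unadjusted p under 0.05, 11 were lower and 1 higher, beside 7.01% and 6.45% of all genes. DESeq2 called 8 as lower and 1 as higher, beside 1.33% and 0.603% of all genes. In 11 of the 16 every AKBA library was below every control library, beside 9.1% of all genes, and in 1, Sprr4, above, beside 9.28%. Sprr3, among the 11, was near the floor with AKBA gel (0.147, 0 and 0.170 CPM, against 0.524, 0.830 and 1.53 CPM with control gel). How far SPRR genes share reads was not measured. As the plot along the gene cluster shows, the sign changed between groups of neighbouring genes.

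The genes that build the envelope beside LCE and SPRR were mixed. Lor encodes loricrin, the main envelope protein. It was at 4272, 6725 and 2088 CPM with AKBA gel, against 2298, 1425 and 1687 CPM with control gel, a log2 fold change of 1.27 ± 0.42. Its libraries stood in the order of the LCE1 sum, with AKBA replicate 3 again below control replicate 1. Flg, the filaggrin gene, averaged 2727 ± 1041 CPM in AKBA libraries and 1579 ± 437 CPM in control libraries (0.79 ± 0.34). Rptn, which encodes repetin, a filaggrin-type protein, averaged 2962 ± 982 CPM in AKBA libraries and 4302 ± 1014 CPM in control libraries (-0.54 ± 0.30). Of the 15 genes of this list that could be tested, 9 had a positive and 6 a negative log2 fold change (median 0.34). edgeR called 0, with 5 of 15 at an unadjusted p under 0.05 in either direction, beside 13.5% of all genes. DESeq2 called 1, Lor, beside 1.93% of all genes in either direction.

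The list of cross-linking and processing enzymes did not lean one way. It also holds the protease inhibitor genes Cst6 and Spink5, and lipid enzyme genes such as Alox12b. Among its 15 genes, 8 log2 fold changes were above 0 and 7 below (median 0.01). Asprv1, the protease that cleaves profilaggrin, averaged 3529 ± 956 CPM in AKBA libraries and 2831 ± 790 CPM in control libraries (0.32 ± 0.31). Casp14, a caspase of filaggrin breakdown, had 0.28 ± 0.26 and Klk7, a protease of corneocyte shedding, -0.17 ± 0.27. edgeR called 0 of the 15, with 2 at an unadjusted p under 0.05, a share near the 13.5% of all genes. DESeq2 called 1, the protease inhibitor gene Cst6, beside 1.93% of all genes.

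Keratins and junction proteins of the upper layers had a median log2 fold change of 0.36 over 9 tested genes, 6 above 0 and 3 below. Krt10, a keratin of suprabasal cells, averaged 19341 ± 5814 CPM in AKBA libraries and 9999 ± 3447 CPM in control libraries (0.95 ± 0.38). Its partner Krt1 averaged 23096 ± 5888 CPM in AKBA libraries and 16281 ± 2877 CPM in control libraries (0.50 ± 0.34). The desmosome protein gene Pkp1 averaged 1505 ± 213 CPM in AKBA libraries and 1830 ± 502 CPM in control libraries (-0.28 ± 0.24). edgeR called 0 of the 9, with 2 at an unadjusted p under 0.05, beside 13.5% of all genes, and DESeq2 called 0, beside 1.93%.

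Regulators of differentiation had log2 fold changes of -0.75 (Hopx) to 0.42. Of 19 measured, 11 were above 0 and 8 below (median 0.07). edgeR and DESeq2 called 0, and 3 had an unadjusted p under 0.05, beside 13.5% of all genes. Klf4, a transcription factor of barrier formation, averaged 443 ± 79.6 CPM in AKBA libraries and 587 ± 192 CPM in control libraries (-0.40 ± 0.25). Cebpa had 0.22 ± 0.18 and Grhl1 0.25 ± 0.14, and both encode transcription factors of differentiating keratinocytes. Trp63, the p63 gene, had -0.14 ± 0.14 and the retinoid receptor gene Rxra 0.08 ± 0.11. NRF2 is a transcription factor of the antioxidant response. Its gene Nfe2l2, one of the 19 regulators, had -0.40 ± 0.14. Every AKBA library was below every control library for Nfe2l2, as for 9.1% of all genes. Of 8 known targets of NRF2, 2 log2 fold changes were above 0 and 6 below (median -0.25). Among them, Txnrd1, a thioredoxin reductase, had 0.48 ± 0.24, Hmox1, heme oxygenase, -0.10 ± 0.14, and Slc7a11, a cystine transporter, -1.22 ± 0.36. edgeR called 0 of the 8, with 1 at an unadjusted p under 0.05, beside 13.5% of all genes. DESeq2 called 1, Slc7a11, beside 1.93% of all genes.

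**Figure D5:**
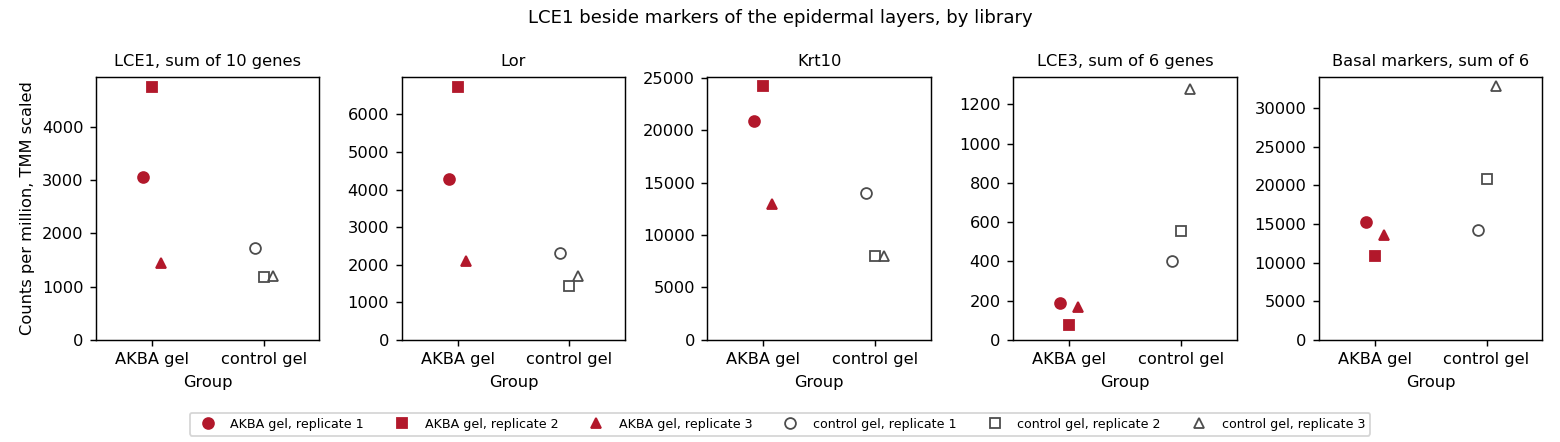
CPM after TMM scaling in each library for the sum of 10 LCE1 genes, Lor, Krt10, the sum of 6 LCE3 genes and the sum of 6 basal keratinocyte markers, with AKBA libraries filled and control libraries open (each panel has its own axis from 0). AKBA replicate 3 and control replicate 1 overlap in the LCE1, Lor and Krt10 panels, and the LCE3 groups do not overlap.

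The summed markers of the upper epidermal layers, most of which is Krt1 and Krt10, were highest in the same AKBA libraries as the LCE1 genes. The 7 suprabasal and granular markers summed to 55228, 64897 and 34858 CPM in AKBA libraries and 39420, 25227 and 29764 CPM in control libraries, and 6 of the 7 were higher with AKBA gel (median log2 fold change 0.50). Again AKBA replicate 3 was below control replicate 1. Not every marker of the list had the order of the LCE1 genes: Tgm3, a transglutaminase gene, was at 231, 180.1 and 163 CPM with AKBA gel, against 175, 248 and 290 CPM with control gel, and Ivl, the involucrin gene, was higher in control replicate 3 than in AKBA replicate 1. The 6 basal markers, of which most is Krt14 and Krt5, summed to 15249, 10854 and 13579 CPM in AKBA libraries and 14170, 20879 and 32900 CPM in control libraries, and 2 of 6 were higher with AKBA gel (median -0.35). The 2 were Krt15 and Col17a1. Krt15 was at 727, 913 and 570 CPM with AKBA gel, against 502, 219 and 196 CPM with control gel, and Col17a1 overlapped between the groups. The LCE1 sum per 100 CPM of the suprabasal and granular markers was 5.53, 7.32 and 4.12 in AKBA libraries and 4.37, 4.66 and 4.01 in control libraries. Per 100 CPM of Krt10 it was 14.7, 19.6 and 11.1 in AKBA libraries and 12.3, 14.6 and 15.0 in control libraries. Relative to these markers the groups overlapped, and the ratio of the group means was smaller than that of the LCE1 sum.

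Markers of other cell types were present in the same libraries. The 5 macrophage markers summed to 511 to 727 CPM in AKBA libraries and 821 to 995 CPM in control libraries, with no overlap and 0 of 5 higher. Of single genes, a different measure, 9.1% had every AKBA library below every control library. Among the macrophage markers, Cd163 and Mrc1 did so clearly, and Csf1r only just (201.60 CPM in AKBA replicate 3, 201.69 CPM in control replicate 2). Adgre1 and Cd68 overlapped between the groups. The 5 sebaceous gland markers summed to 104 to 185 CPM in AKBA libraries and 53.8 to 107 CPM in control libraries, with overlap and 5 of 5 higher. Hair follicle markers varied most, from 23.5 to 1996 CPM in AKBA libraries and from 94.7 to 2885 CPM in control libraries. Skeletal muscle markers summed to 3822 to 4464 CPM in AKBA libraries and 2905 to 6445 CPM in control libraries. These 2 lists overlapped between the groups as well, and so did the next 4. Endothelial markers summed to 182 to 325 CPM in AKBA libraries and 310.1 to 407 CPM in control libraries. T cell markers summed to 12.7 to 21.8 CPM in AKBA libraries and 17.8 to 27.7 CPM in control libraries. Melanocyte markers summed to 68.2 to 193 CPM in AKBA libraries and 71.8 to 186 CPM in control libraries. Langerhans cell markers summed to 588 to 856 CPM in AKBA libraries and 548 to 657 CPM in control libraries, most of it Cd74, which overlapped. The other markers of that list, Epcam and Cd207, had every AKBA library above every control library, as did 9.28% of all genes. Cd207 was at 10.3, 12.5 and 7.24 CPM with AKBA gel, against 5.81, 4.58 and 2.83 CPM with control gel. No marker of these lists was at 0 in all libraries. The part of these cell types in the LCE1 values was not tested.

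The genes whose levels followed the LCE1 sum most closely were sought among 12261 genes with a mean of at least 5 CPM, by the Pearson correlation of log2 CPM over the 6 libraries, as a description. The 5 highest outside the LCE1 group were Ecm1 (r = 0.997), Lce6a (0.996), Polm (0.996), Atxn7l3b (0.995) and Lor (0.995). Ecm1 encodes extracellular matrix protein 1, and it was at 207, 286 and 133 CPM with AKBA gel, against 146, 117 and 123 CPM with control gel. Lce6a, a late cornified envelope gene of the same cluster, was at 119, 210.3 and 51.6 CPM with AKBA gel, against 66.8, 42.0 and 37.0 CPM with control gel. In both, AKBA replicate 3 was below control replicate 1. The DNA polymerase gene Polm averaged 37.0 ± 7.42 CPM in AKBA libraries and 28.1 ± 2.46 CPM in control libraries. Atxn7l3b averaged 89.3 ± 3.19 CPM in AKBA libraries and 85.7 ± 0.857 CPM in control libraries, so its r with the LCE1 sum came with a small difference in level. Among the members, Lce1b and Lce1a1 had the highest r with the sum they are part of, and Lce1h the lowest (0.978).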

How the data were processed

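The authors deposited 1 table with a count and an FPKM value per gene and library, beside their own log2 fold change, p-value and FDR. The counts are whole numbers, and each FPKM value equals the deposited count per column total and per 1 length per gene (the implied lengths differed by at most 1.02 times between libraries, tested on the 9795 genes that reached 200 counts in all 6). The submitters' processing notes name CASAVA 1.8, RSEM, edgeR and the build GRCm38, with no roles. How the deposited log2 fold changes and p-values were made is not stated per the labels or the file headers. Strand-specific counting is not stated.

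Groups came from the sample titles. All count columns were used as deposited. Fold changes (AKBA gel over control gel) with 2-sided p-values were computed with edgeR 4.0.16 (R 4.3.3), using TMM scaling, filterByExpr at its defaults, which kept 17023 genes, the quasi-likelihood F test on all 6 libraries with no covariate, and Benjamini-Hochberg adjustment at 0.05. The SE is the log2 fold change over the square root of F. DESeq2 1.42.0 was an alternative. CPM are counts scaled by TMM-adjusted library size, and log2 CPM used a prior count of 2. FPKM served only for levels between genes. The floor covers counting error only. The edgeR script was tested on simulated data.

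Positions came from GENCODE M21 on GRCm38, in which 47310 gene identifiers were found. Identity is the share of identical positions in a global alignment, gaps included. Flg stands on 7 rows of the table, and the row whose identifier GENCODE names Flg was used.

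The members, the lists and the tests were chosen with earlier results of these data known. All members are named. Of each other list the 3 genes with the highest mean CPM are named, and 5 of the regulators. The 5 genes with the highest correlation with the LCE1 sum are named too. Genes called by DESeq2, Sprr3, Sprr4, Hopx, Nfe2l2, Tgm3 and Ivl were named after their values were seen. So were the basal, macrophage and Langerhans cell markers named and the LCE1 genes outside the set.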

Additional observations from a re-analysis of the deposited data

How the results depend on the processing

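The log2 fold change of each of the 10 members stayed above 0, and edgeR called 0 members, under each alternative tried: DESeq2 size factors, no low-count filter, a filter of 5 CPM in 3 libraries, the replicate block, 1 library left out, AKBA replicate 2 and control replicate 3 left out together, and the DESeq2 Wald test, which also called 0. Leaving out 1 library at a time gave a median of 0.70 to 1.46, a ratio of the summed CPM of 1.65 to 2.86, and 0 to 10 members with every AKBA library above every control library. The 10 came without AKBA replicate 3 or without control replicate 1, by the removal of the library that overlapped. Without AKBA replicate 2 and control replicate 3 the median was 0.63 and the ratio 1.55. Over all genes edgeR called 0, with 2291 at an unadjusted p under 0.05. The DESeq2 Wald test called 304, and edgeR called 0 to 14 with 1 library left out, the 14 without control replicate 1. The cause was not tested. The replicate block gave a median of 0.98 and 0 calls. The deviations of same-numbered libraries from their group means correlated with r of 0.0724, 0.0185 and -0.327, so the numbers were not taken as pairs. With CPM in place of FPKM, 8 of 10 members kept their place. Depth did not limit the members, each with at least 868 counts in each library.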
